A study of Homo sapiens with 9 samples.

Results

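The genes described here are 10 genes of arachidonate and prostaglandin metabolism, out of 51796 gene identifiers in the count table, of which 18292 passed the filter on low counts. All 10 passed it. They were taken by gene name: the phospholipases PLA2G4A and PLA2G4C, the cyclooxygenases PTGS1 and PTGS2, the prostaglandin E synthases PTGES, PTGES2 and PTGES3, the breakdown enzymes PTGR1 and HPGD, and the receptor PTGER4. PTGS2 and PLA2G4C were chosen by their measured change between the groups in these libraries, so their values are given as a description and only the other 8 genes were tested. RNA was measured in A549, an epithelial line derived from a human lung adenocarcinoma, in 3 groups of 3 libraries each: DMSO, the solvent control; GSK591, a selective inhibitor of PRMT5, at 1 µM; and MS023, an inhibitor of the type I PRMT enzymes, at 1 µM. Treatment lasted 7 days. Symmetric dimethylarginine is made chiefly by PRMT5, and the type I enzymes make the asymmetric form. Plates of the treated groups were seeded with 0.4 and control plates with 0.2 times 100000 cells, so the inhibitors and the seeded number cannot be told apart in a comparison with DMSO.

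Prostaglandins are short-lived lipid signals. A cytosolic phospholipase A2 cuts arachidonate from membrane phospholipids, a cyclooxygenase turns it into prostaglandin H2, and a terminal synthase turns that into prostaglandin E2, which acts on receptors such as EP4. HPGD, the prostaglandin dehydrogenase, then inactivates it by oxidising its hydroxyl group. PTGS1 is the cyclooxygenase found in many tissues at a steady level, and PTGS2 the form that growth factors and cytokines induce. In lung cancer cells PTGS2 is known as a source of prostaglandin E2 and HPGD as the enzyme that removes it.

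Total counts ran from 31398075 to 51244525 per library. The epithelial label was checked against 5 markers, whose summed level was 3962.7 to 6444 CPM over the 9 libraries (CPM are counts scaled to library size after TMM normalisation). Leukocyte markers summed to 21.1 to 35.8 CPM, mostly CD68 and CD14, while PTPRC, which all leukocytes express, had 6 counts over all libraries. Markers of platelets, which express PTGS1 strongly, summed to 1.79 to 2.94 CPM, with GP9 at 2 counts in all. In GSK591, 3 of 4 tested leukocyte markers were higher than in DMSO and none lower (all genes tested: 30.1% higher and 32.4% lower). In MS023 3 were lower and none higher (all genes tested: 25.9% lower and 25.1% higher). Fibroblast and endothelial markers, of which 3 of 7 were tested, summed to 14.4 to 17.1 CPM in DMSO, 8.98 to 10.6 in GSK591 and 27.4 to 30.5 in MS023. Most of that sum was COL1A1, at means of 11.7 CPM in DMSO, 7.18 in GSK591 and 25.1 in MS023. COL3A1 stood at 3.89, 1.93 and 3.32 CPM in the same groups. The part of these markers in the results below was not tested. GSK591 replicate 3 stood apart by its mitochondrial rRNA, at 932.5 CPM against 0.410 to 20.7 CPM in the other libraries. DMSO replicate 1 had the most among the controls. Whether replicates were separate cultures is not said in the labels, so the p-values reflect only how far these libraries spread.

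The first step of the pathway, the release of arachidonate, showed both phospholipases at changed levels, in opposite directions with GSK591. PLA2G4A (ENSG00000116711, hg19 chromosome 1, 186798085 to 186958113) codes for cytosolic phospholipase A2 alpha, the enzyme with a preference for arachidonate. It stood at 133.7, 148.1 and 141.4 CPM in the DMSO libraries, at 71.2, 65.8 and 61.9 CPM in the GSK591 libraries, and at 162.0, 158.9 and 162.9 CPM in the MS023 libraries. No library of one group reached the range of another. PLA2G4A fell 2.13-fold with GSK591 (log2 -1.09 ± 0.05, standard error, n = 3 per group; edgeR adjusted p = 1.34e-10). With MS023 it rose slightly, by a log2 change of 0.19 ± 0.05 (edgeR adjusted p = 0.00402). That small rise did not pass in the authors' FPKM, with limma adjusted p of 0.136 at a pseudocount of 1 and 0.140 at 0.1. Between the inhibitors PLA2G4A was 2.43-fold higher in MS023 (log2 1.28 ± 0.05, edgeR adjusted p = 1.30e-11).

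PLA2G4C (ENSG00000105499, hg19 chromosome 19, 48551100 to 48614074) codes for the gamma form, which differs from the alpha form in lacking the calcium-binding C2 domain. Its DMSO libraries held 16, 35 and 30 counts, or 0.500, 0.759 and 0.648 CPM. The GSK591 libraries held 231, 310 and 369 counts, or 7.18, 7.29 and 8.05 CPM. In MS023 there were 63, 53 and 55 counts, or 1.23, 1.38 and 1.29 CPM. The order was thus DMSO lowest, MS023 between and GSK591 highest, with no overlap between groups, and the mean of CPM was 11.8 times that of DMSO in GSK591 and 2.05 times in MS023. In the authors' FPKM these ratios were 5.39 and 1.61, so the size of the difference depends on the table. Its DMSO values in FPKM spread from 0.393 to 0.959.

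Per length, PLA2G4A remained the more abundant of the pair in every library. FPKM, which scales fragments by transcript length and library size, allows genes to be compared with each other, which CPM does not. The PLA2G4C share of the summed FPKM of both phospholipases was 1.64% ± 0.565 in DMSO (SD, n = 3), 16.7% ± 3.34 in GSK591 and 2.33% ± 0.460 in MS023. The sum itself was 42.4 ± 3.39 FPKM in DMSO, 23.1 ± 1.41 in GSK591 and 49.0 ± 0.962 in MS023, so the additional PLA2G4C RNA was smaller than the loss of PLA2G4A RNA in GSK591.

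**Figure D1:**
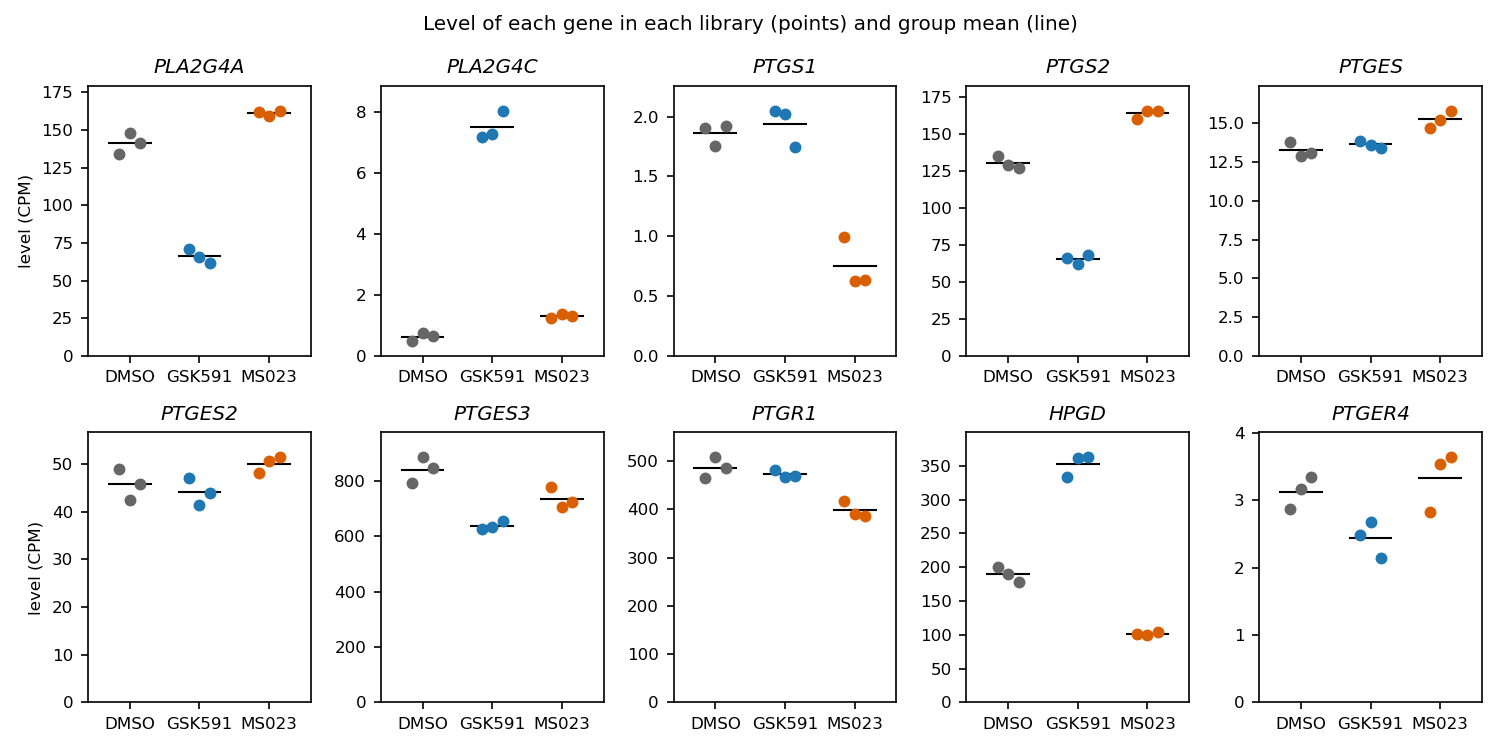
Level of each of the 10 genes in CPM (vertical axes, each from 0) for the 3 libraries of each group (points) with the group mean (line). PLA2G4A and PTGS2 were lowest in GSK591 and highest in MS023, HPGD had the opposite order, and PLA2G4C stood apart in GSK591 at 7.18 to 8.05 CPM.

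The second step, cyclooxygenase, was carried almost wholly by PTGS2 RNA in these cells. PTGS2 (ENSG00000073756, hg19 chromosome 1, 186640923 to 186649559) stood at 134.8, 128.8 and 126.9 CPM in DMSO. GSK591 libraries had 66.4, 62.4 and 68.4 CPM, and MS023 libraries 160.3, 165.6 and 165.7 CPM. Each group lay clear of the others: GSK591 at 0.505 times the mean of DMSO and MS023 at 1.26 times. The log2 differences from DMSO were -0.99 ± 0.04 and 0.33 ± 0.04 (standard errors), given without a test because the gene was chosen for this pattern.

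PTGS1 (ENSG00000095303, hg19 chromosome 9, 125132824 to 125157982) was a low-level RNA with another pattern. DMSO libraries had 1.91, 1.76 and 1.92 CPM and GSK591 libraries 2.05, 2.02 and 1.74 CPM, which overlapped. MS023 libraries had 0.995, 0.625 and 0.635 CPM, all below the others, from 102 counts in the group against 231 in DMSO. PTGS1 fell 2.42-fold with MS023 (log2 -1.28 ± 0.19, edgeR adjusted p = 6.53e-05). Between GSK591 and DMSO its log2 difference was 0.05 ± 0.17 and did not pass (edgeR adjusted p = 0.795). Against GSK591 it was lower in MS023 by 2.52-fold (log2 -1.33 ± 0.19, edgeR adjusted p = 2.25e-05). Of the summed FPKM of both cyclooxygenases, PTGS2 made up 98.5% ± 0.300 in DMSO, 96.9% ± 0.247 in GSK591 and 99.5% ± 0.143 in MS023 (SD, n = 3).

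PTGS2 and PLA2G4A are neighbours in the genome. They lie head to head on opposite strands, with their starts 148.526 kb apart in hg19, and only 1 other gene is listed between them. This is a short RNA annotated 195 bases upstream of PTGS2 on the opposite strand, RP5-973M2.2 (PACERR in a later gene name table), which was at 0.291 to 0.397 FPKM in DMSO, 0.394 to 0.639 in GSK591 and 0.417 to 0.562 in MS023. As annotated, this short RNA does not overlap PTGS2. The strand setting of the counting is not given in the sources used here. C1orf27, the next tested gene on the other side of PTGS2 at 250.413 kb, rose slightly with GSK591 (log2 0.10 ± 0.04, edgeR adjusted p = 0.0324) and fell with MS023 (-0.29 ± 0.04, adjusted p = 2.57e-05). RGS2, the next beyond PLA2G4A at 5820.06 kb, also went the other way, with log2 changes of 0.30 ± 0.06 (adjusted p = 9.47e-04) and -1.07 ± 0.07 (adjusted p = 1.57e-08). The lower level in GSK591 and the higher level in MS023 were therefore seen in PTGS2 and PLA2G4A and not in the tested gene on either side of the pair. In RNA from whole cultures, fewer cells with a gene on and less RNA per cell cannot be told apart. The ratio of PLA2G4A to PTGS2 in FPKM was 1.72 ± 0.106 in DMSO, 1.60 ± 0.146 in GSK591 and 1.54 ± 0.0137 in MS023 (SD, n = 3), a narrow range beside the difference of about 2-fold that each had with GSK591.

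The stretches before the starts of PTGS2, PLA2G4A and HPGD are shown because the first pair moved together and HPGD moved against them. Each is the 250 bases upstream of the start in RefSeq (build GRCh38.p14), 5′ to 3′ on the gene's strand, and 9 of the 10 genes matched that table; PLA2G4C did not. PTGS2 lies at chr1:186680424-186680673 on the minus strand, PLA2G4A at chr1:186828699-186828948 on the plus strand, and the first of 2 listed HPGD starts at chr4:174522489-174522738 on the minus strand. Capitals mark matches, on either strand, to 5 motifs of factors known for PTGS2. These are the TATA box TATAAA, the CRE core CGTCA, the C/EBP motif TTNNGNAA, the AP-1 motif TGANTCA and the NF-kB motif GGGRNNYYCC. Here N is any base, R is A or G, and Y is C or T. Stretches that depart from these letters, such as ggggactacccc in the PTGS2 window, are not marked.
PTGS2: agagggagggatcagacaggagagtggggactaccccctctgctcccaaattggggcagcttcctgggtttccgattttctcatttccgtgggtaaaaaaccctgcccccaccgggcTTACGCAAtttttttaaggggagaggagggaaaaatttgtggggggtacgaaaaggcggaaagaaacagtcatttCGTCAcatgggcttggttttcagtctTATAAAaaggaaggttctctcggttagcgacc
PLA2G4A: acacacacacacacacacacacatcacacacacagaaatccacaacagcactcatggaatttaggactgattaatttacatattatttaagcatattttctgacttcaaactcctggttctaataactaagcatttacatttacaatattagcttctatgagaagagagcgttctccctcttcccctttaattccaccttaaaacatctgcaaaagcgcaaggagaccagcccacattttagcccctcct
HPGD: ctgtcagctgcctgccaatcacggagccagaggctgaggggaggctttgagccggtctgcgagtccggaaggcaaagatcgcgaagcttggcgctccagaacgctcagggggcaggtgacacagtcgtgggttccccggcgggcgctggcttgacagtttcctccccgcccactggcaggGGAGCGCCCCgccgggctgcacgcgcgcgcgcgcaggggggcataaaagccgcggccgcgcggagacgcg

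In the PTGS2 window the C/EBP match began 133, the CRE core 58 and the TATA box 32 bases before the start. No motif match overlapped another there. The PLA2G4A window held none of the 5 motifs, and that of HPGD only an NF-kB match, which began 70 bases before the start. The window of the second listed HPGD start, not shown, held a CRE core that began 77 bases before it, a motif also found at PTGS2. Over all 35116 windows of this length in the table, 10.7% held the TATA box, 21.2% the CRE core, 33.2% the C/EBP motif, 6.57% the AP-1 motif and 9.96% the NF-kB motif. These are matches of letters and say nothing of what was bound.

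At the third step, the terminal prostaglandin E synthases, PTGES3 fell with both inhibitors, PTGES rose with MS023 and PTGES2 did not pass against DMSO. PTGES (ENSG00000148344, hg19 chromosome 9, 132500610 to 132515326), the inducible membrane-bound synthase often coupled to PTGS2, stood at 13.8, 12.9 and 13.1 CPM in DMSO, 13.9, 13.6 and 13.4 in GSK591, and 14.7, 15.2 and 15.8 in MS023. The MS023 libraries were all above the rest, and DMSO and GSK591 overlapped. Its rise with MS023 was a log2 change of 0.20 ± 0.06 (edgeR adjusted p = 0.00655), while the difference of 0.04 ± 0.06 with GSK591 did not pass (adjusted p = 0.522). The difference between the inhibitors (log2 0.16 ± 0.06, edgeR adjusted p = 0.0190) did not pass in DESeq2 (adjusted p = 0.0763), at a filter of 1 CPM (0.0635), without GSK591 replicate 2 (0.0564) or 3 (0.0615), or without MS023 replicate 2 (0.0536) or 3 (0.104).

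PTGES2 (ENSG00000148334, hg19 chromosome 9, 130882972 to 130890741), a further membrane-associated synthase, overlapped between DMSO and each inhibitor. Its means were 45.8 ± 3.24 CPM in DMSO, 44.2 ± 2.78 in GSK591 and 50.1 ± 1.70 in MS023 (SD, n = 3). Neither difference from DMSO passed (edgeR adjusted p = 0.446 and 0.0615), but that of MS023 passed in 10 of 21 alternatives. Among these were scaling by total counts (adjusted p = 0.0188), no filter (0.00926), a filter of 1 CPM (0.0491), the fits without DMSO replicate 1 (0.00933), GSK591 replicate 1 (0.0305) or MS023 replicate 1 (0.0464), and the authors' FPKM (limma, 0.0285). MS023 lay above GSK591 by a log2 difference of 0.18 ± 0.06 (edgeR adjusted p = 0.00977), a call that ended without GSK591 replicate 2 (0.0711).

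PTGES3 (ENSG00000110958, hg19 chromosome 12, 57057127 to 57082159) codes for p23, an HSP90 co-chaperone that is also known as the cytosolic prostaglandin E synthase. It had 792.6, 886.9 and 845.5 CPM in DMSO, 625.2, 633.6 and 655.4 CPM in GSK591, and 780.3, 706.7 and 723.5 CPM in MS023, with no overlap between groups. PTGES3 fell with both inhibitors, by 0.40 ± 0.04 on the log2 scale with GSK591 (edgeR adjusted p = 1.85e-06) and by 0.19 ± 0.04 with MS023 (adjusted p = 0.00221). The smaller fall did not pass in FPKM (limma adjusted p = 0.143 and 0.144 at the 2 pseudocounts). Of its processed copies, PTGES3P1 had the most counts, 344 over all libraries against 280450 for PTGES3. How reads that match several copies were counted is not given in the sources, so PTGES3 is uncertain to that extent.

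**Figure D2:**
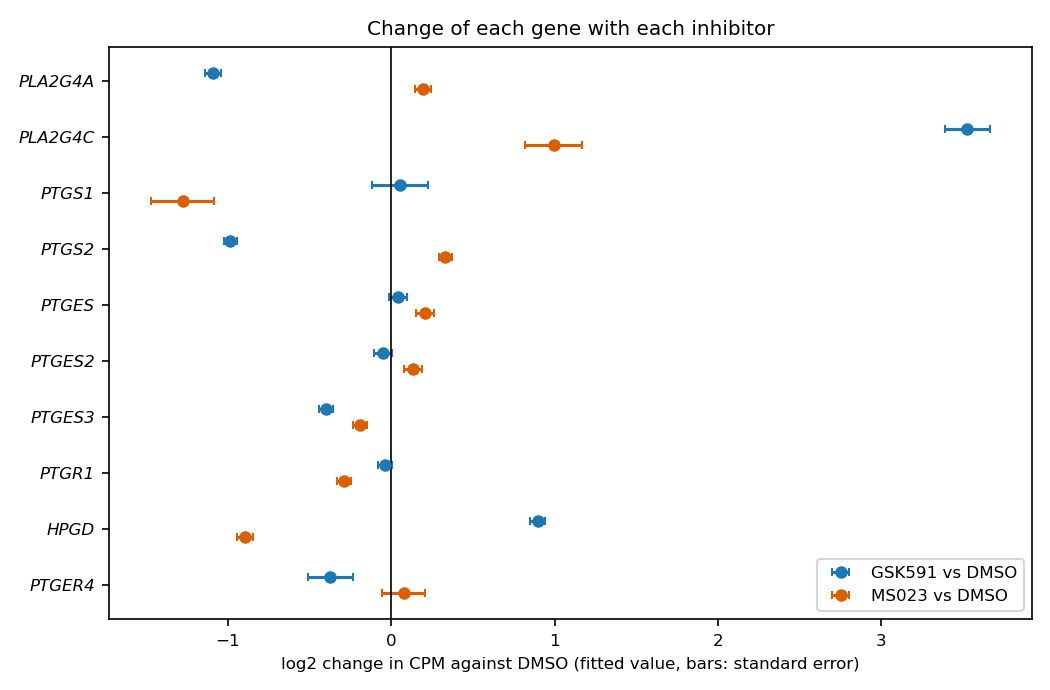
Fitted log2 change against DMSO (horizontal axis) for each gene with GSK591 and MS023, with bars of 1 standard error. PLA2G4A, PTGS2 and HPGD lie on opposite sides of 0 for the inhibitors, while PTGES3 lies below 0 and PLA2G4C above 0 for both.

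At the breakdown step, HPGD passed in opposite directions with the inhibitors and PTGR1 passed only with MS023. HPGD (ENSG00000164120, hg19 chromosome 4, 175411328 to 175444305) stood at 199.9, 190.5 and 178.6 CPM in DMSO. It reached 333.5, 362.2 and 363.2 CPM in GSK591 and dropped to 101.9, 100.3 and 103.5 CPM in MS023, so each group was well apart. HPGD rose 1.86-fold with GSK591 (log2 0.90 ± 0.05, edgeR adjusted p = 5.47e-10) and fell 1.86-fold with MS023 (log2 -0.90 ± 0.05, edgeR adjusted p = 1.27e-09). The direct comparison put it 3.46-fold lower in MS023 than in GSK591 (log2 -1.79 ± 0.05, adjusted p = 2.38e-13). The 5 epithelial markers summed to 4884.4 to 5012.9 CPM in DMSO, 6235 to 6444 in GSK591 and 3962.7 to 4157 in MS023, the same order of groups as HPGD. KRT8 and KRT18 made up nearly all of that sum. CDH1 also had the order of HPGD, at 94.9 CPM in DMSO, 111.4 in GSK591 and 88.8 in MS023. EPCAM had the opposite order, at 13.5 CPM in DMSO, 6.43 in GSK591 and 21.0 in MS023, and KRT19 stood at 52.1, 162.7 and 56.2 CPM. The part of these markers in the HPGD result was not tested. The neighbours of HPGD did not share its pattern: CEP44, 156.797 kb away, fell with both inhibitors (log2 -0.87 ± 0.07 and -0.64 ± 0.07), as did WDR17 at 1542.68 kb (-0.28 ± 0.05 and -0.17 ± 0.05).

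PTGR1 (ENSG00000106853, hg19 chromosome 9, 114312002 to 114362135) codes for a reductase of later prostaglandin breakdown products that also acts on leukotriene B4, and is known as an NRF2 target. Its DMSO libraries had 464.3, 508.3 and 485.9 CPM and the GSK591 libraries 482.5, 467.9 and 468.4 CPM, which overlapped. MS023 libraries were lower, at 416.9, 390.9 and 385.2 CPM. PTGR1 fell by 0.29 ± 0.04 on the log2 scale with MS023 (edgeR adjusted p = 4.81e-05), and its difference with GSK591, -0.04 ± 0.04, did not pass (adjusted p = 0.429). Against GSK591 it was lower in MS023 (log2 -0.25 ± 0.04, adjusted p = 1.03e-04), a call that ended in FPKM (limma adjusted p = 0.127). ZNF483 overlaps PTGR1 on the opposite strand, with 3584 counts over all libraries, so part of these reads cannot be placed with certainty.

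HPGD was also set against PTGS2 and PLA2G4A as a ratio, of which PTGS2 was chosen for its pattern, so these are descriptions. The ratio of HPGD to PTGS2 in FPKM was 3.52, 3.41 and 3.20 in the DMSO libraries, 10.9, 12.8 and 11.5 in the GSK591 libraries, and 1.30, 1.31 and 1.35 in the MS023 libraries. No library came near the next group. HPGD over PLA2G4A gave 1.97 ± 0.197 in DMSO, 7.39 ± 0.879 in GSK591 and 0.862 ± 0.0237 in MS023 (SD, n = 3). These ratios describe RNA, and no prostaglandin was measured.

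**Figure D3:**
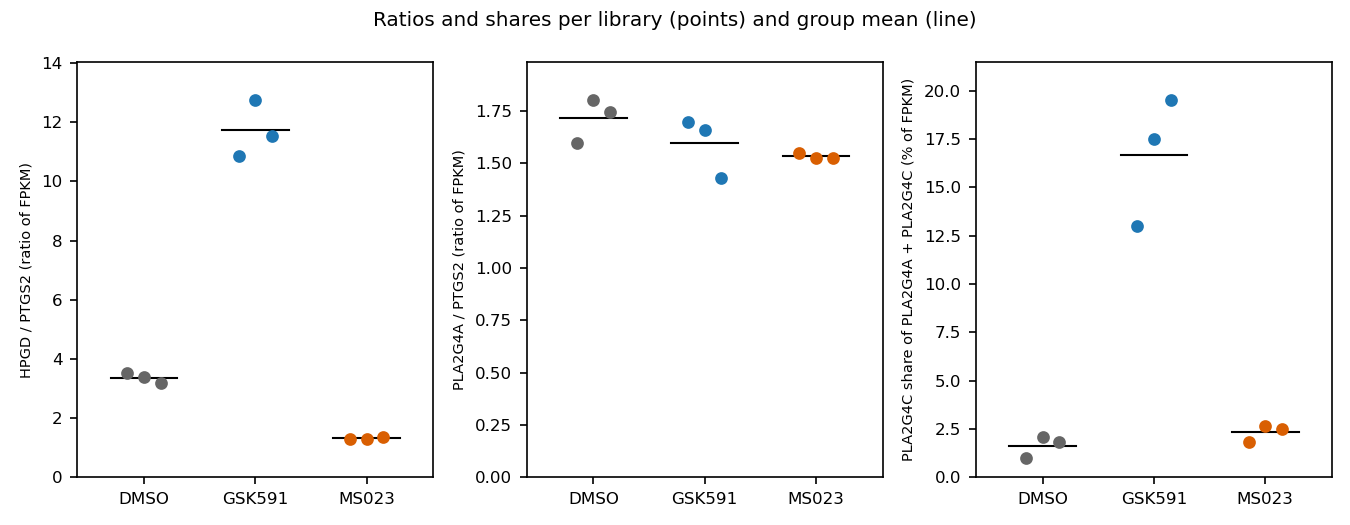
Ratio of HPGD to PTGS2 (left) and of PLA2G4A to PTGS2 (middle) in FPKM, and the PLA2G4C share of the FPKM of both phospholipases in percent (right), 1 point per library with the group mean as a line and axes from 0. The left ratio is 10.9 to 12.8 in GSK591 and 1.30 to 1.35 in MS023, while the middle ratio stays between 1.43 and 1.80 in all 9 libraries.

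PTGER4 (ENSG00000171522, hg19 chromosome 5, 40679600 to 40693837) codes for EP4, a prostaglandin E2 receptor that raises cyclic AMP. It was a low-level RNA, at 2.88, 3.16 and 3.35 CPM in DMSO, 2.49, 2.68 and 2.14 in GSK591 and 2.83, 3.54 and 3.64 in MS023. GSK591 libraries lay below all DMSO libraries, and DMSO and MS023 overlapped. The log2 change with GSK591 was -0.37 ± 0.14 (edgeR adjusted p = 0.0288), which did not pass without DMSO replicate 2 (adjusted p = 0.0704) or 3 (0.0881), without GSK591 replicate 1 (0.0591) or 3 (0.158), scaled by total counts (0.0717), at a filter of 1 CPM (0.0507) or in FPKM (limma, 0.133). With MS023 the difference of 0.08 ± 0.13 did not pass (adjusted p = 0.652). MS023 lay above GSK591 by 0.45 ± 0.14 (adjusted p = 0.00932), and without GSK591 replicate 3 this did not pass (0.0553).

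Of the 8 genes not chosen for their pattern, GSK591 thus had 1 higher (HPGD) and 3 lower (PLA2G4A, PTGES3, PTGER4), or 4 of 8. Of all genes tested 62.6% were called in this comparison, 30.1% higher and 32.4% lower. MS023 had 2 higher (PLA2G4A, PTGES) and 4 lower (PTGS1, PTGES3, PTGR1, HPGD), or 6 of 8. Of all genes 51.0% were called there, 25.1% higher and 25.9% lower. The median log2 change of the 8 was -0.05 with GSK591 and -0.06 with MS023, against 0.01 and -0.00298 over all genes. Between the inhibitors all 8 passed, 5 higher and 3 lower in MS023, beside 65.4% of all genes, 33.6% higher and 31.7% lower. Most of all genes were called in each comparison, so the counts alone set these genes apart little and their values are to be read gene by gene. Both comparisons with DMSO use the same 3 control libraries.

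Per length, the 10 genes fell into 2 levels in the controls. PTGES3 (392.3 ± 33.3 FPKM) and PTGR1 (310.5 ± 20.2) were highest, above 98.9% and 98.6% of the genes tested. HPGD followed at 82.1 ± 4.18, PLA2G4A at 41.7 ± 3.11, PTGS2 at 24.3 ± 0.376, PTGES at 22.4 ± 0.610 and PTGES2 at 19.7 ± 0.506 (SD, n = 3). Each of these was separate from the next in the 3 DMSO libraries. PTGER4 (0.714 ± 0.0433), PLA2G4C (0.709 ± 0.289) and PTGS1 (0.377 ± 0.0736) were far lower, and the libraries of neighbours in that order overlapped. In GSK591 the order differed: PTGES (21.8 ± 0.827) and PTGES2 (18.9 ± 1.14) stood above PTGS2 (12.1 ± 0.309), and PLA2G4C (3.82 ± 0.592) above PTGER4 (0.553 ± 0.102). PLA2G4A (19.3 ± 1.87) overlapped with both PTGES and PTGES2 there.

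**Figure D4:**
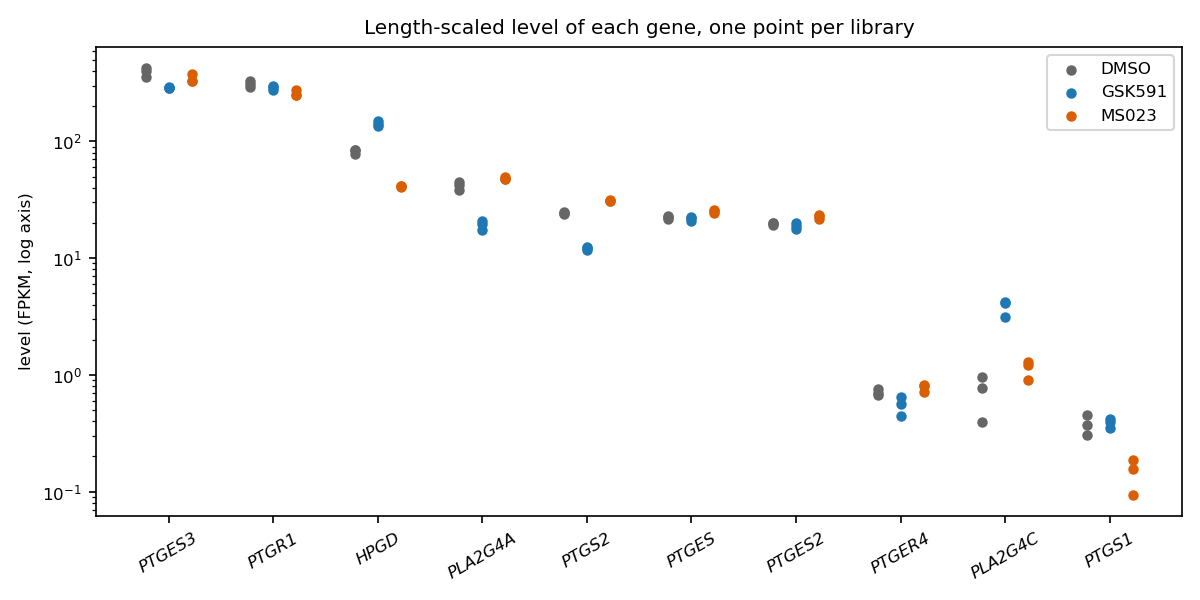
Length-scaled level of each gene in FPKM on a log axis, 1 point per library, with genes ordered by their mean in DMSO. PTGES3 and PTGR1 lie at or above 247.2 FPKM in every library, and PTGER4 and PTGS1 at or below 0.813.

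The other genes of arachidonate metabolism were taken from 6 lists by role, 103 symbols in all, of which 73 were tested. With GSK591 25 rose and 25 fell (median log2 change 0.01), where 62.6% of all genes were called. With MS023 31 rose and 19 fell (median 0.16), where 51.0% of all genes were called. In the release of arachidonate, 7 of 17 rose and 8 fell with GSK591 (all genes: 30.1% higher and 32.4% lower). DAGLA, the diacylglycerol lipase that makes the endocannabinoid precursor of arachidonate, rose with both inhibitors, from 7.63 ± 0.613 CPM to 16.7 ± 0.922 with GSK591 and 13.2 ± 0.719 with MS023 (log2 1.12 ± 0.07 and 0.78 ± 0.07). PLA2G6, a calcium-independent phospholipase, rose with GSK591 (0.40 ± 0.09) and fell with MS023 (-0.27 ± 0.09). The secreted PLA2G12A fell with both (-0.98 ± 0.06 and -0.19 ± 0.06), and its call with GSK591 ended in FPKM (limma adjusted p up to 0.121). With MS023 4 of 17 rose and 7 fell (all genes: 25.1% higher and 25.9% lower). Among them were the lysosomal PLA2G15 (0.60 ± 0.07) and the monoacylglycerol hydrolase ABHD6 (-0.45 ± 0.08), which also fell with GSK591 (-0.34 ± 0.08). MGLL, the main such hydrolase, fell with both (-0.42 ± 0.04 and -0.35 ± 0.04), and both calls ended in unfiltered FPKM (limma adjusted p up to 0.107 and 0.131).

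Among 13 genes that make arachidonate or return it to phospholipids, 4 rose and 7 fell with GSK591 (all genes: 30.1% and 32.4%). With MS023 5 rose and 1 fell (all genes: 25.1% and 25.9%). ACSL4, which activates arachidonate to its coenzyme A ester, rose with both (log2 0.59 ± 0.04 and 0.32 ± 0.04), while ACSL3 fell with both (-0.84 ± 0.04 and -0.19 ± 0.04), the latter not in unfiltered FPKM (limma adjusted p up to 0.0680). MBOAT7, which puts arachidonate into phosphatidylinositol, rose with GSK591 from 102 ± 7.65 to 150 ± 4.05 CPM. The elongase ELOVL2 fell with GSK591 (-0.63 ± 0.05). LPCAT2, a lysophosphatidylcholine acyltransferase, rose with MS023 from 32.9 ± 1.42 to 49.4 ± 2.31 CPM.

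The other prostanoid synthases and reductases had 11 of 13 higher and 2 lower with MS023, with a median of 0.38, beside 25.1% of all genes higher and 25.9% lower. With GSK591 3 were higher and 4 lower, with a median of -0.02, beside 30.1% and 32.4% of all genes. AKR1B1, an aldo-keto reductase with prostaglandin F synthase activity, followed HPGD in direction: it rose with GSK591 from 472 ± 7.24 to 1123 ± 36.6 CPM (log2 1.25 ± 0.03) and fell with MS023 to 331 ± 7.38 CPM (-0.51 ± 0.03). PTGDS, a prostaglandin D synthase, rose with MS023 from 50 to 234 counts over the group (log2 2.10 ± 0.25), which did not pass at the smaller pseudocount in FPKM (limma adjusted p = 0.0582). CBR3, a carbonyl reductase, rose with MS023 (0.74 ± 0.07), and PTGR2, another prostaglandin reductase, fell (-0.86 ± 0.07). GSTM2 rose with both inhibitors (0.79 ± 0.12 and 0.59 ± 0.12). AKR1C2 (-0.34 ± 0.02) and ZADH2 (-0.33 ± 0.05) fell with GSK591 and rose with MS023 (0.27 ± 0.02 and 0.55 ± 0.04). Reads of AKR1C2 and GSTM2 can be shared with near-identical family members, and the call of ZADH2 with GSK591 ended in FPKM (limma adjusted p up to 0.202).

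Of 9 other receptors and transporters, 3 rose and 1 fell with GSK591 (all genes: 30.1% and 32.4%). With MS023 4 rose and 2 fell (all genes: 25.1% and 25.9%). PTGER2, which codes for EP2, the other receptor for prostaglandin E2 that raises cyclic AMP, stood at 2.03, 2.19 and 1.51 CPM in DMSO and 3.47, 3.67 and 3.92 CPM in MS023, and rose by 0.95 ± 0.14 (edgeR adjusted p = 6.29e-05). In GSK591 it stood at 1.70 ± 0.113 CPM and did not pass (adjusted p = 0.402). The transporter SLCO3A1 rose with both inhibitors (0.76 ± 0.05 and 0.50 ± 0.05). PPARG, a nuclear receptor that binds prostaglandin metabolites, fell with MS023 (-0.37 ± 0.04). PTGFRN, a negative regulator of the prostaglandin F receptor, fell with both (-0.42 ± 0.03 and -0.23 ± 0.03), calls that ended in FPKM (limma adjusted p up to 0.105 and 0.569). ABCC4, which exports prostaglandins, was 0.09 ± 0.03 higher with GSK591 (adjusted p = 0.0297), and this ended with the replicate number as a block, without DMSO replicate 3 and in FPKM, where it also took the opposite sign (adjusted p up to 0.614).

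In the lipoxygenase and leukotriene branch, 5 of 12 genes rose and 2 fell with GSK591 (all genes: 30.1% and 32.4%). With MS023 3 rose and 4 fell (all genes: 25.1% and 25.9%). The 5 and the 4 both include ALOX5AP, which met the filter on low counts only through its GSK591 libraries. ALOX15, a lipoxygenase of airway epithelium, was at 0.438, 0.564 and 0.475 CPM in DMSO and at 2.54, 2.19 and 2.0 CPM in MS023, a rise of 2.17 ± 0.24 on the log2 scale (edgeR adjusted p = 3.74e-06). GSK591 libraries had 0.714, 0.658 and 0.305 CPM and overlapped with DMSO. The leukotriene B4 receptors LTB4R (1.05 ± 0.11) and LTB4R2 (1.15 ± 0.20) rose with GSK591, but these genes overlap each other and their reads cannot be fully separated, and LTB4R2 did not pass at the smaller pseudocount in FPKM (limma adjusted p = 0.0576). DPEP1, a dipeptidase of leukotriene processing, fell with both (-1.40 ± 0.26 and -1.19 ± 0.25), as did LTA4H, which makes leukotriene B4 (-0.17 ± 0.04 and -0.29 ± 0.04). MGST2 was 0.14 ± 0.05 higher with MS023 (adjusted p = 0.0434), a call that ended in most alternatives, among them the loss of any 1 MS023 replicate, of DMSO replicate 1 or of DMSO replicate 3, with adjusted p up to 0.342.

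Of 9 genes of the P450 branch and its hydrolases, 3 rose and 3 fell with GSK591 (all genes: 30.1% and 32.4%). With MS023 4 rose and 3 fell (all genes: 25.1% and 25.9%). EPHX2, the soluble epoxide hydrolase, went the way of PTGS2: it fell with GSK591 from 18.5 ± 0.590 to 9.27 ± 0.260 CPM (log2 -1.0 ± 0.06) and rose with MS023 to 23.9 ± 1.03 CPM (0.38 ± 0.05), the rise not in unfiltered FPKM (limma adjusted p up to 0.105). CYP2U1, an arachidonate hydroxylase, went the way of HPGD (0.63 ± 0.08 and -0.56 ± 0.08). CYP1B1 rose with both inhibitors (0.38 ± 0.04 and 0.14 ± 0.04). CYP4F11 fell with GSK591 (-0.31 ± 0.04) and rose with MS023 (0.29 ± 0.04). CYP4F3 rose (0.81 ± 0.05) and CYP4F12 fell (-0.53 ± 0.06) with MS023. Members of the CYP4F family are similar in sequence, so their single values are uncertain.

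**Figure D5:**
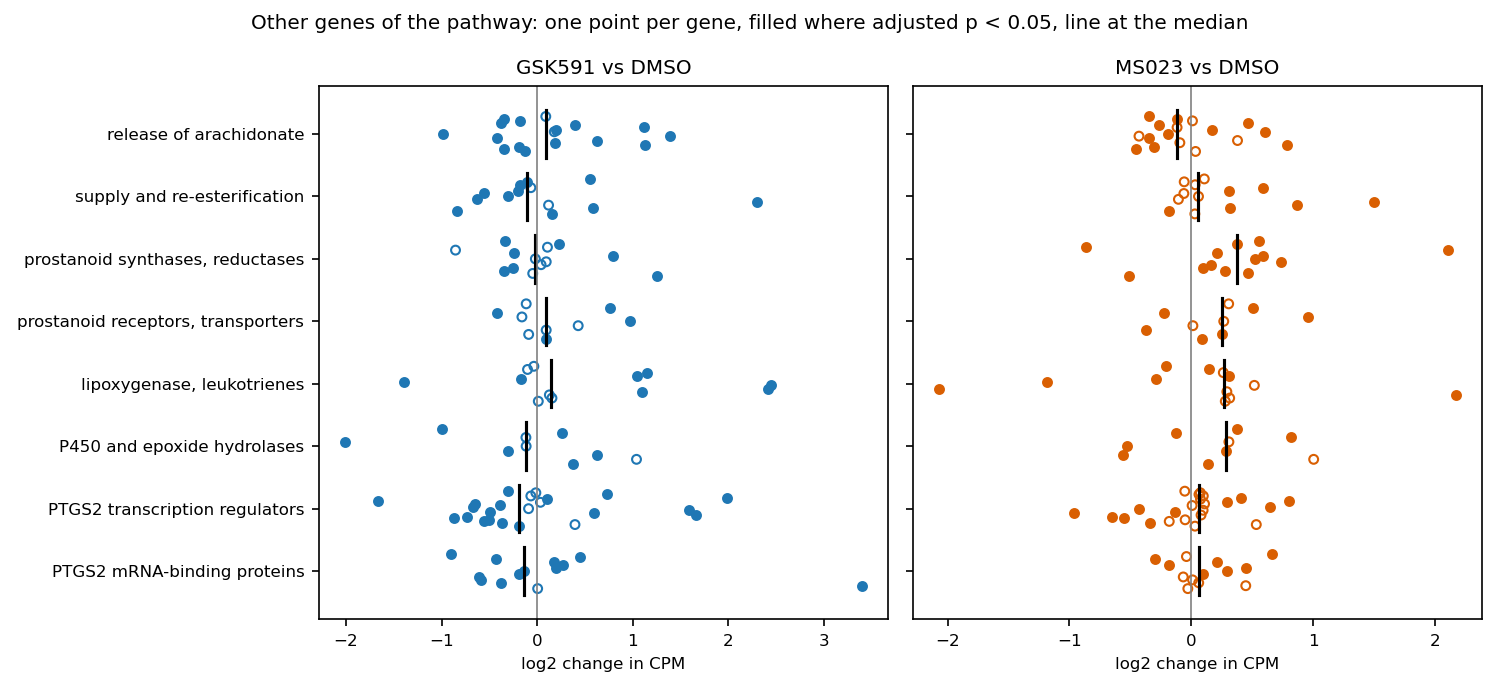
Log2 change of every tested gene of the 8 lists with GSK591 (left) and MS023 (right), filled where edgeR adjusted p was under 0.05, with a line at each list's median. In MS023 the prostanoid synthases and reductases have their median at 0.38, and no other list median in either comparison is beyond 0.3 from 0.

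Genes known to act on PTGS2 did not move as a block. Of 23 transcriptional regulators, 6 rose and 12 fell with GSK591, with a median of -0.19 (all genes: 30.1% and 32.4%). With MS023 4 rose and 6 fell, with a median of 0.06 (all genes: 25.1% and 25.9%). NFKB2, an NF-kB subunit, rose with both inhibitors, from 28.6 ± 1.03 to 113.0 ± 4.31 CPM with GSK591 (log2 1.98 ± 0.04) and to 37.8 ± 0.549 CPM with MS023 (0.40 ± 0.04), and so was highest where PTGS2 was lowest. FOSL1, an AP-1 subunit, rose with GSK591 (1.66 ± 0.05). FOS fell with both (-0.73 ± 0.06 and -0.66 ± 0.05), and so did EGR1 (-0.87 ± 0.18 and -0.56 ± 0.17). The AP-1 subunit FOSL2 fell with MS023 (-0.96 ± 0.04), and JUND rose with MS023 from 91.1 ± 11.3 to 142.3 ± 15.3 CPM (0.64 ± 0.09). With GSK591 these went the other way, JUND lower at 57.2 ± 5.94 CPM (-0.67 ± 0.09) and FOSL2 higher at 285.0 ± 8.0 CPM (0.59 ± 0.04), so JUND had the order of groups of PTGS2 and FOSL2 the opposite order.

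A further 13 tested genes are known for mRNAs with AU-rich elements such as that of PTGS2: RNA-binding proteins and the kinase MAPKAPK2. Of these, 5 rose and 7 fell with GSK591, with a median of -0.14 (all genes: 30.1% and 32.4%). The 5 that rose include CELF2, which met the filter on low counts only through its GSK591 libraries. With MS023 5 rose and 2 fell, with a median of 0.06 (all genes: 25.1% and 25.9%). ZFP36L2, which promotes decay of such mRNAs, fell with GSK591 from 160.6 ± 10.9 to 86.1 ± 2.33 CPM (-0.90 ± 0.05) and rose with MS023 to 254.4 ± 15.5 CPM (0.66 ± 0.05), in the same order of groups as PTGS2. Its relative ZFP36L1 rose with GSK591 (0.45 ± 0.04), and ZFP36 fell with both inhibitors (-0.43 ± 0.05 and -0.30 ± 0.05). HNRNPD, also called AUF1, fell with GSK591 (-0.60 ± 0.05), and RBM3 rose with both inhibitors (0.20 ± 0.04 and 0.45 ± 0.04). TIA1 rose with GSK591 (0.27 ± 0.04) and fell with MS023 (-0.19 ± 0.04), the latter not in FPKM (limma adjusted p up to 0.185).

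Among 13127 named genes with a mean of at least 1 CPM, the profile over the 9 libraries closest to PTGS2, by the root mean square difference of log2 CPM after centring on DMSO, was that of SLC37A4, a glucose-6-phosphate transporter (0.0453). FBLN1, which codes for the matrix protein fibulin-1 (0.0476), and AGFG1 (0.0492) came next. PLA2G4A ranked 47 with 0.130. Among the 3 profiles closest to PLA2G4C were those of HTR1F, a serotonin receptor (0.390), and CRISPLD2 (0.407). CRISPLD2 stood at 1.1 ± 0.215 CPM in DMSO, 10.6 ± 0.401 in GSK591 and 1.65 ± 0.217 in MS023. LIG1, the nearest tested gene to PLA2G4C at 4.628 kb, did not share its pattern and fell with GSK591 (log2 -0.68 ± 0.04, edgeR adjusted p = 1.28e-09).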

How the data were processed

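Total RNA freed of ribosomal RNA was sequenced in paired ends, per the labels' protocols. The authors deposited 1 table of raw read counts per gene (whole numbers, 51796 identifiers) and 9 tables of FPKM in the Cufflinks layout, per the file headers. The submitters' processing notes name cutadapt, STAR, featureCounts, DESeq2 and hg19. For their versions, the annotation and the strand setting: not given in the sources used here. Positions are from the FPKM tables (hg19), written 1-based.

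Counts were fitted in R 4.3.3 with edgeR 4.0.16 (filterByExpr with minimum count 10 and minimum total 15, TMM, quasi-likelihood F-test, group as the only term, all 9 libraries), with Benjamini-Hochberg adjustment over 18292 genes and a threshold of 0.05. Tests are two-sided, and fold changes are fitted values with their standard errors. FPKM were tested as an alternative with limma 3.58.1 on log2(FPKM + 1) or + 0.1, and counts with DESeq2 1.42.0. Scripts were tested on simulated data. The genes, lists and rules were chosen with earlier results of these data known. Named were the 10 genes, up to 2 genes each way per list against DMSO (adjusted p under 0.05, mean of at least 1 CPM, no overlap), the nearest tested neighbours and the 3 closest profiles of PTGS2 and PLA2G4C, of which 1 is not reported here. JUND and FOSL2 in GSK591 and the LTB4R overlap were noted after values were seen. Replicate numbers did not pair the libraries: deviations of same-numbered libraries correlated with r from -0.43 to 0.26 over 9 pairs. Reads are not independent molecules, so errors cover counting and the spread between libraries only.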

Additional observations from a re-analysis of the deposited data

How the results depend on the processing

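Each value was recomputed under 21 alternatives. Of 624 comparisons of a gene's log2 change with its main value, 564 kept direction and call (for PTGS2 and PLA2G4C: moved by less than 1 SD), 31 lost a call, 10 gained one, 10 moved and 9 changed sign. Every change of sign was in a GSK591 difference that did not pass in any setting: PTGES2 at 0.0103 scaled by total counts, 0.0147 without DMSO replicate 1 and 0.0208 without DMSO replicate 1 and GSK591 replicate 3; PTGR1 at 0.0215 scaled by total counts, 0.00640 at a filter of 1 CPM and 0.00808 without DMSO replicate 2; PTGES at -0.0331 in log2(FPKM + 1), with or without the filter of FPKM 1, and -0.0345 with a pseudocount of 0.1. Leaving out 1 library gave -0.0872 to 0.0147 for PTGES2 and -0.0565 to 0.00808 for PTGR1. HPGD kept every call in the 21 settings. PLA2G4C was smaller on the log2(FPKM + 1) scale, 1.5 with GSK591 and 0.33 with MS023. The number of genes called in MS023 against DMSO fell from 9327 to 5473 in log2(FPKM + 1), 5506 with a pseudocount of 0.1 and 5782 with a filter of FPKM 1, and that of the 109 tested genes of all 8 lists, PTGS2 regulators included, from 67 to 44 and 42 with the first 2 of these; the cause was not tested. Between the inhibitors 5 of the 8 genes passed at that filter, which left 6 of them tested. With the replicate number as a block, 4, 6 and 8 of the 8 genes were called in GSK591, MS023 and between the inhibitors, as without it, and 11145, 8855 and 11642 of all genes; 1 of 9 libraries correlated best with its own number. The block ended the small call of ABCC4 and that of MGST2. Leaving out 1 library at a time gave 3 to 4, 6 to 7 and 6 to 8 of the 8 genes, 76 to 81, 54 to 67 and 83 to 86 of the listed genes, and 10588 to 11572, 8012 to 9297 and 11211 to 12364 of all genes. The depth limits PTGS1 and PLA2G4C most, with 231 and 81 counts over the DMSO libraries.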

Other observations

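Several genes of the same lists were too low for the rule on named genes and are given by their counts over each group of 3 libraries. They were chosen after their values were seen, so they are described without a test. ALOX5AP, the partner protein of 5-lipoxygenase, had 13 counts in DMSO, 69 in GSK591 and 3 in MS023. ALOX5 itself had 36 counts in DMSO and 76 in GSK591, and ALOXE3, an epidermal-type lipoxygenase, 28 and 151. CELF2, an RNA-binding protein known to bind PTGS2 mRNA and hold back its translation, had 13 counts in DMSO and 137 in GSK591. ALOX5AP and CELF2 met the filter on low counts only through their GSK591 libraries, and both are included in the counts of called genes above. Among phospholipases, PLA2G10 had 30 and 78 counts and PLA2G4B 60 and 128. Other low genes of these lists had fewer counts with GSK591 than in DMSO: CYP4F2 went from 72 to 17 and NFATC4 from 63 to 19. JUN, an AP-1 subunit well above that limit, rose 1.59 ± 0.06 on the log2 scale with GSK591, from 15.3 to 46.0 CPM, and was left out because its list already had the genes the rule allows.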
